A study of Pseudotsuga menziesii with 83 samples.

Results

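Among 90662 numbered features counted by RNA-seq in mature needles of Douglas-fir (Pseudotsuga menziesii), 100 were selected on their mean level per date, which was nearly flat from March to May and lower in June. The rule used CPM, a feature's counts scaled by the column total so that libraries share a common sum, on the log2(CPM + 1) scale, averaged per date over 11 trees. It kept features with a mean count of 50 or more, left out the 50 with the largest row sums, and required the range of the March, April and May means to be under 0.4. This gave 16435 features by count, of which 6525 had so small a spring range. The 100 members are those with the largest gap between the lowest earlier mean and the June mean. The features carry only numbers, and the files do not pair them with gene names, so neither a function nor a sequence is given for any of them.

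Trees were raised from seed and, at 2 years of age, planted in a common garden in southern Oregon. Needles of the prior year's growth were taken from them on 10 March, 7 April, 6 May and 17 June of a single year. Oregon Siskiyou trees (ORSI) were 44 and 90 of 1 family and 46 and 89 of another. Washington Cascades trees (WACA) were 05 and 39 of 1 family and 08 of another. Washington Coast trees (WACS) were 10 and 69 of 1 family and 12 and 68 of another. No agent was applied, each tree gave 1 library per date, and trees of a family are half-sibs, so replicates are single trees and family cannot be told apart from its 1 or 2 trees. Tree 38, a half-sib of tree 08, has libraries labelled April, May and June and was left out by the rule. The study's own sample list gives other dates for that tree, so its last library is called the library labelled June.

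An evergreen conifer holds its needles over several seasons. In temperate climates, mature needles lose cold hardiness through spring and resume full photosynthesis, while buds open and new shoots form beside them. Sampling a single needle cohort through this period follows the old needles and not the new growth. All trees were labelled pre-budbreak in March and post-budbreak in June. In April, trees 44, 46 and 89, all ORSI, were already post-budbreak, and in May tree 10 alone was still pre-budbreak.

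The 47 library totals lay between 11293394 and 11302021 counts, so depth hardly differed in the deposited table. The 50 most abundant features took a mean of 18.7% of the counts of the March libraries and 20.7%, 28.7% and 34.0% of those of April, May and June (n = 11 trees). On the CPM scale this was accompanied by a June change of -0.19 (log2) in the median of all 16435 features, and changes on that scale are to be read against it. March and April libraries were divided over flowcells fc1022 and fc1025, and all May and June libraries ran on fc1025. No lane held libraries of more than 1 date, so lane and date cannot be told apart.

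The members held a mean of 0.757%, 0.746% and 0.723% of all counts on the 3 earlier dates and 0.373% on the last. Their mean log2(CPM + 1) was 4.89 ± 0.25 (SD, n = 11 trees) in March and 4.88 ± 0.33 in April. It was 4.82 ± 0.25 in May and 3.87 ± 0.20 in June. Over all 16435 features the same mean was 4.41, 4.44, 4.22 and 4.16 in date order. In bulk needles, fewer cells of a type and less RNA per cell cannot be told apart, and all these levels are shares of a library. The flat spring and low June were the basis of the choice, so these values describe the members and test nothing.

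**Figure D1:**
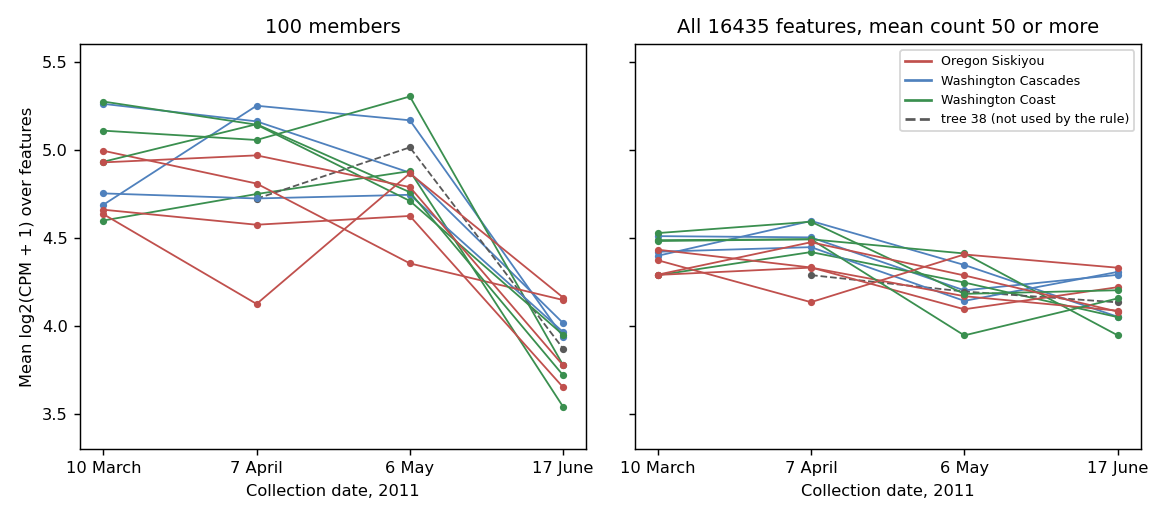
Mean log2(CPM + 1) on the 4 dates in each tree, over the 100 members (left) and over all 16435 features with a mean count of 50 or more outside the 50 most abundant (right). Each line is 1 tree, coloured by seed source, and the dashed line is tree 38. The members' 11 June means lie between 3.54 and 4.16, and the lowest earlier mean is 4.12, in the April library of tree 89.

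The members' June change, the June value minus the mean of March, April and May, had a median of -0.92 over the 100 members, with CPM in June at a median of 50.1% of the earlier mean (10.1% to 60.3%). The change was below -1 in 32 members, against 4.02% of all 16435 features, and below -1.5 in 3, against 1.07%. June was below the mean of the earlier dates in all 11 trees for 60 members and in 10 trees for another 32, and the lowest number was 8 trees, in 3 members. Of all 16435 features, 17.8% were lower in June in all 11 trees. June was the lowest of the 4 dates in all 11 trees for 28 members, against 1.28% of all features. For no member did the June libraries all lie below every earlier library (0 of 100, against 0.0243% of features). In 2 members, gene66303 and gene38037, the June libraries all lay below the May libraries, against 0.11% of features, and gene66303 is named because of this count. These counts rest on the contrast that chose the members, so nothing is read from the gap to the background. They do show that the members' ranges in June and earlier overlapped between trees even where the direction within trees was shared.

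The members had mean counts of 54.3 to 5780 (median 270), against a median of 188 for all 16435 features. 25 members had a mean count under 100 and 18 over 1000. The highest of the 4 date means was in March for 40 members, in April for 39 and in May for 21. Trees differed more in the members than in all features, a description of values that the choice itself used. The SD between trees of the March to May mean had a median of 0.46 over members and 0.30 over all features, and the SD of the June change 0.42 and 0.35. The spring was flatter on average than within trees: the range of March, April and May inside a single tree had a median of 0.58, against 0.67 for all features and the limit of 0.4 set on the means. Feature numbers of members were scattered, with 0 pairs of consecutive numbers and a smallest gap of 7.

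The member with the largest selecting measure was gene19136, at 1.98. Its CPM had a lowest, median and highest value over the 11 trees of 27.9, 68.9 and 516 in March. In April these were 22.0, 102 and 362, and in May 24.4, 59.1 and 337. In June they were 6.29, 18.1 and 76.0. June was lowest in 10 trees, and the exception was tree 89, with 76.0 CPM in June after 68.9, 22.0 and 67.9 on the earlier dates. The June change was -2.07 ± 1.24 (SD between trees, n = 11), so the trees differed widely in its size. The spring mean was flat although single trees moved: tree 08 passed from 516 to 362 to 130 CPM, while tree 10 passed from 39.4 to 58.9 to 337.

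The next was gene37248, with a measure of 1.82 and a low mean count of 85.3. Its CPM ranged from 0.62 to 53.3 in March (median 3.28), from 1.95 to 13.4 in April (median 8.32) and from 2.04 to 35.9 in May (median 5.04). In June it ranged from 0.089 to 2.92 (median 0.71), and was the lowest of the 4 dates in 10 of 11 trees. Its June change was -1.99 ± 0.83 (SD, n = 11), and its June mean CPM was 10.1% of the earlier mean, the lowest share of any member. The March maximum, in tree 69, was far above the median, so its March mean rests on few trees.

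The most abundant members had a smaller SD of the June change than gene19136 and gene37248, but one near the members' median of 0.42. gene3097, with a mean count of 5780, had CPM of 339 to 820 in March (median 559), 254 to 1078 in April (median 637) and 257 to 1059 in May (median 457). Its June range was 168 to 664 (median 309), and its change was -0.93 ± 0.47 (SD, n = 11), negative in all 11 trees. Tree 05 was the highest on all 4 dates. gene38037, with a mean count of 4663, had medians of 481, 434 and 467 CPM from March to May and 267 in June. Its 11 June values, 143 to 302 CPM, all lay under the lowest May value of 329, but not under the April value of 205 in tree 89. Its change was -0.92 ± 0.40 and negative in 10 of 11 trees.

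The members in which trees differed most were gene25991 and gene14526, with SDs of 1.46 and 1.32 between trees of the March to May mean. For gene25991, tree 68 had 171, 275 and 371 CPM in March, April and May, and tree 89 had 3.90, 5.22 and 1.59. In June these trees had 154 and 3.28 CPM. The order of the outermost trees was thus kept in June, and the June change was -0.87 ± 0.71. For gene14526, tree 69 had 0.62, 0.35 and 0.27 CPM before June and 0.71 in June, whereas tree 05 had 17.6, 55.4 and 34.4 CPM before June and 11.2 in June. Its change was -1.17 ± 1.15 and negative in 9 of 11 trees.

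**Figure D2:**
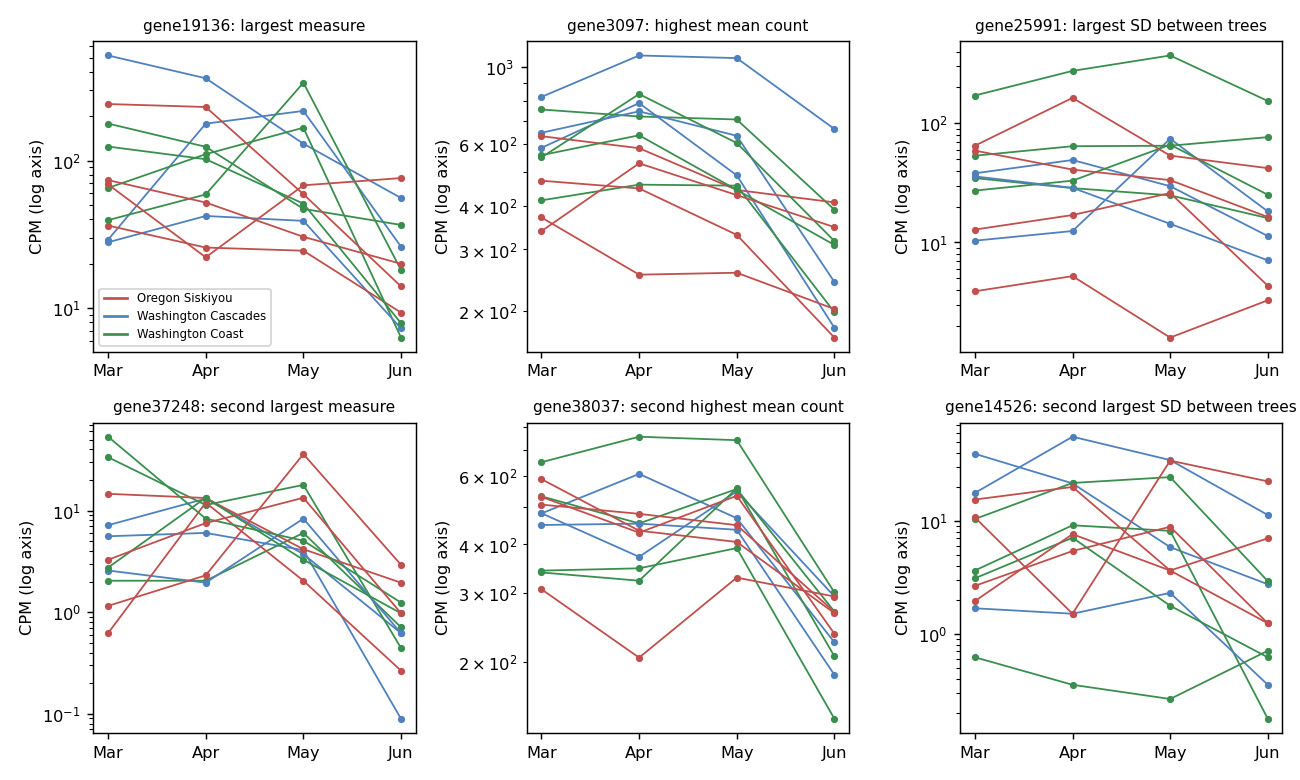
CPM (log axis) of 6 members on the 4 dates, 1 line per tree, coloured by seed source. From left to right the columns hold the members with the largest selecting measure (gene19136, gene37248), the highest mean count (gene3097, gene38037) and the largest SD between trees (gene25991, gene14526). June medians are 18.1, 0.71, 309, 267, 16.4 and 1.24 CPM in that order, and the lines of single trees cross on the earlier dates.

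The end of the list was not a natural break. The last members were gene40550, with a measure of 0.6878, and gene9264, with 0.6863. The first features outside were gene13535, with 0.6861, and gene3272, with 0.6835.

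Every tree had a negative median change over the members, and its size differed between trees. It was -0.55 in tree 44, -0.91 in tree 90, -0.95 in tree 46 and -0.49 in tree 89, the ORSI trees. It was -1.10 in tree 05, -0.76 in tree 39 and -0.98 in tree 08, the WACA trees, and -1.27 in tree 10, -1.05 in tree 69, -1.11 in tree 12 and -1.16 in tree 68, the WACS trees. Trees 89 and 44 had the smallest changes, with 77 and 89 of 100 members lower in June, against 46.04% and 53.5% of all features. In each of the other 9 trees 92 to 100 members were lower, against 50.9% to 82.3%. The median change over all 16435 features ran from -0.53 in tree 10 to 0.05 in tree 89. After subtracting it, the members' median was -0.62 ± 0.13 (SD, n = 4) in ORSI, -0.77 ± 0.10 (n = 3) in WACA and -0.86 ± 0.08 (n = 4) in WACS. The smallest WACS value, -0.75 in tree 10, overlapped with ORSI, where tree 46 had -0.78.

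**Figure D3:**
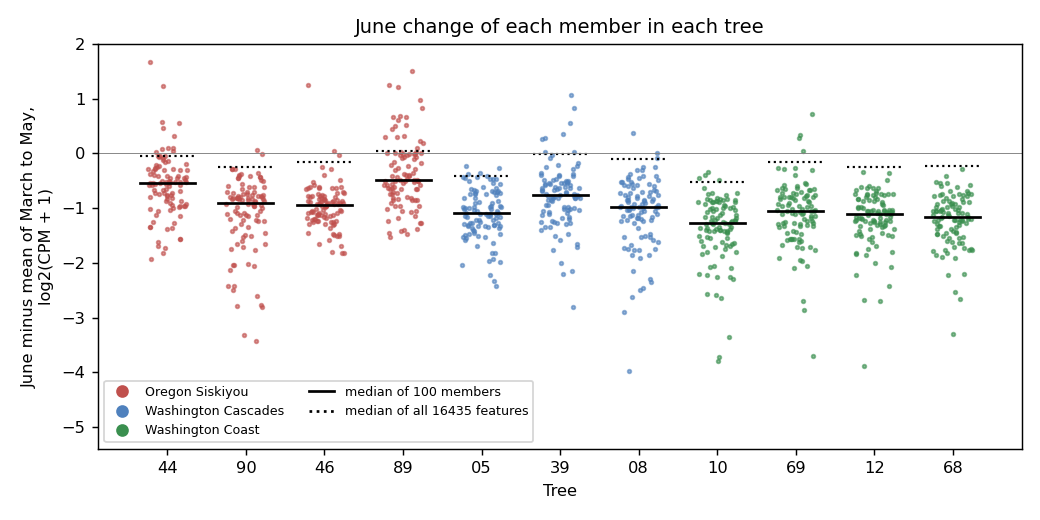
June value minus the mean of March, April and May (log2(CPM + 1)) of each of the 100 members in each of 11 trees. Each point is a member, the solid bar is the members' median and the dotted bar the median of all 16435 features in that tree. The solid bars lie between -1.27 (tree 10) and -0.49 (tree 89), below the dotted bar in every tree.

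Within each seed source the date means gave a similar shape with differing depth. All these trees took part in the choice of the members, so the counts that follow describe them and test nothing. June was the lowest of the 4 date means for 95 members in ORSI, 100 in WACA and 100 in WACS, against 31.1%, 34.6% and 47.0% of all features. The median change of the date means was -0.71 in ORSI, -0.93 in WACA and -1.16 in WACS, beside -0.10, -0.17 and -0.29 for all features. It reached -1 or lower for 16 members in ORSI, 39 in WACA and 72 in WACS, against 3.01%, 4.41% and 7.14% of all features. The change was -0.5 or lower in all 3 sources for 82 members (10.5% of all features) and -1 or lower in all 3 for 9 (1.89%). The largest of the 3 changes was in WACS for 69 members, against 58.7% of all features, and the smallest in ORSI for 66, against 54.6%. The spring was less flat in ORSI, where 49 members kept the range of the 3 earlier means under 0.4, than in WACA, with 65, or WACS, with 66. The shares of all features with so small a range were 35.1%, 33.3% and 35.1%.

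Whether the June change of the members differed between seed sources was not used by the rule and was tested. In edgeR's quasi-likelihood fit of the 44 libraries, with TMM scaling (which sets library sizes by the bulk of features) and Benjamini-Hochberg adjustment over 29189 features, 0 of 100 members passed an adjusted p of 0.01 for ORSI minus the mean of WACA and WACS, as did 0.0% of all features. At an unadjusted p of 0.05, 9 members passed, against 5.16% of all features, and DESeq2 also called 0 members. The fitted difference was above 0, meaning a smaller fall in ORSI, for 67 members, against 49.3% of all features, with a median of 0.22 (all features -0.01). In this edgeR fit, which had no term for the tree, the member with the smallest p was gene57080. It had a difference of 0.80 ± 0.24 (SE) and an adjusted p of 0.94 in edgeR. With the tree as a block, gene57080 had a difference of 0.79 and an adjusted p of 0.18 in edgeR. Its June CPM was 30.5, 18.9, 17.9 and 28.1 in ORSI trees 44, 90, 46 and 89 after spring values of 16.6 to 40.5. In the 7 Washington trees it was 12.6 to 22.3 in June after 17.8 to 68.9. The June values overlapped, and the difference did not pass the test.

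The change did not pass the test between the Washington sources either. For WACA minus WACS, 0 of 100 members passed in edgeR, as did 0.0% of all features, 2 members had an unadjusted p of 0.05 or less (0.86% of all features), and DESeq2 called 0 members. The median difference was 0.10 (all features 0.01), with 62 members above 0, against 51.5% of all features. The smallest p was that of gene69379, at 0.91 ± 0.37 (SE) with an adjusted p of 1 in edgeR. It had 2.39, 3.10 and 3.36 CPM in June in WACA trees 05, 39 and 08, and 1.24, 1.50, 1.77 and 2.04 in WACS trees 10, 69, 12 and 68. Its June values did not overlap, but its spring values did, at 3.54 to 8.59 CPM in WACA and 3.81 to 8.85 in WACS.

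Levels before June were compared on the counts of March, April and May added up per tree, over 38856 features. For ORSI minus Washington, 0 of 100 members passed an adjusted p of 0.01 in edgeR, as did 0.0% of all features, and 12 had an unadjusted p of 0.05 or less, against 12.1%. The share of members was thus at the background. The median difference was -0.13 (all features 0.00), and DESeq2 called 1 member. The smallest p belonged to gene2355, at -1.78 ± 0.44 (SE) with an adjusted p of 0.23 in edgeR, and DESeq2 called this feature. Its March to May values in ORSI were 3.19 to 5.67 CPM in tree 90 and 3.98 to 40.1 in tree 44, against 14.7 to 185 in the Washington trees. The groups overlapped.

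For WACA minus WACS, 0 of 100 members passed in edgeR, as did 0.00515% of all features, and 10 had an unadjusted p of 0.05 or less, against 5.7%. DESeq2 called 1 member, gene49676, which also had the smallest p in edgeR, with a difference of 3.48 ± 0.77 (SE) and an adjusted p of 0.48. This difference came from 2 of the 3 WACA trees. Tree 08 had 57.7, 29.4 and 8.14 CPM in March, April and May, tree 05 had 0.71, 14.3 and 37.5, and tree 39 had 0.53 to 1.51. The 4 WACS trees had 0.27 to 3.19 CPM, so tree 39 lay within their range. In June, trees 08 and 05 had 0.62 and 3.01 CPM, and tree 39 had a count of 0. Taken as a plain count, this allows up to 3 counts, or 0.266 CPM (counting error only).

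A more direct check of the June fall used lists chosen without the trees in which they were measured. The same rule was applied to the trees of 2 sources, and the resulting 100 features were tested in the source left out. These lists shared 58 (without ORSI), 70 (without WACA) and 63 (without WACS) features with the members. June minus the mean of the earlier dates had a median of -0.60 in the ORSI trees, -0.67 in the WACA trees and -0.80 in the WACS trees, on the TMM scale on which all features tested had a median of -0.01, 0.00 and 0.00. Only 3, 1 and 3 features of the lists had a change above 0, while close to 50% of all features did (49.4%, 49.7% and 49.95%). The direction of the choice was thus shared by trees that had no part in it.

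In the main fit, which had no term for the tree, few of these falls passed the threshold singly. In edgeR at an adjusted p of 0.01, 6 of 100 features fell in ORSI, against 0.614% of all 29175 tested and 0.909% of those with a mean count of 50 or more, and 0 rose. In WACA 1 of 100 fell, against 0.106% and 0.171%. In WACS 15 of the 99 tested fell, against 3.43% and 4.71%. At an unadjusted p of 0.05 or less stood 56, 51 and 68 features of the lists, against 20.4%, 20.7% and 32.3% of all features tested. Libraries of the 4 dates came from the same trees, and with the tree as a block the counts were 24 in ORSI (2.33% of all features lower), 16 in WACA (1.86%) and 62 in WACS (9.56%). Trees were left out only in the fits without this block. Leaving out any 1 ORSI tree then left 0 of the 100 called in ORSI, when 8 to 88 features of the whole table were called in place of 366. Leaving out any 1 WACA tree left 0 in WACA, when 0 to 1 of the whole table were called in place of 116. Leaving out tree 10, 69, 12 or 68 left 6, 9, 5 or 2 in WACS, when 742, 944, 445 or 679 features of the whole table were called in place of 2313.

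**Figure D4:**
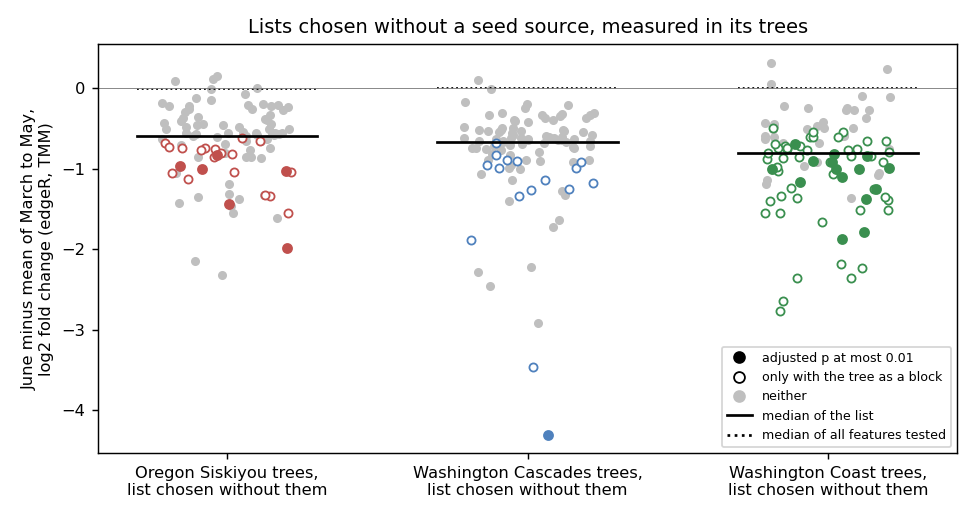
June minus the mean of March, April and May (log2 fold change, edgeR with TMM) in the trees of each seed source, for the list of 100 features the rule gave without that source. Filled coloured points passed an adjusted p of 0.01, open points passed only with the tree as a block, and solid and dotted bars are the medians of the list and of all features tested. The list medians are -0.60, -0.67 and -0.80.

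In ORSI the smallest p among the list belonged to gene34096, which is no member, with a change of -1.44 ± 0.23 (SE) and an adjusted p of 0.0031 in edgeR. Its June CPM was 1.59, 1.51, 1.42 and 1.51 in trees 44, 90, 46 and 89, and its earlier values in these trees were 2.39 to 6.29. The groups did not overlap. gene28109, also no member, fell by 1.99 on the log2 scale (SE 0.34, edgeR adjusted p = 0.0042), from 1.95 to 6.73 CPM before June to 0.71 to 1.24 in June, again without overlap. Without any 1 ORSI tree these changes were -1.37 to -1.49 and -1.90 to -2.07, and neither was called.

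In WACA the feature that fell was gene35408, no member, at -4.31 ± 0.40 (SE) with an adjusted p of 0.0014 in edgeR. Trees 05, 39 and 08 had 54.3, 40.1 and 35.9 CPM in March and 59.6, 63.4 and 53.6 in April. They had 9.56, 18.2 and 13.1 CPM in May and 1.33, 0.71 and 2.30 in June. In these trees it was thus already lower in May than in April, unlike the shape for which the list was chosen in the other trees. Without any 1 of the 3 trees the change was -3.83 to -4.80 and was not called.

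In WACS the smallest p belonged to members gene12936 and gene12606. gene12936 fell by 1.01 on the log2 scale (SE 0.13, edgeR adjusted p = 0.00025), from 386 to 651 CPM before June to 203, 185, 201 and 234 CPM in June in trees 10, 69, 12 and 68. gene12606 fell by 0.90 on the log2 scale (SE 0.12, edgeR adjusted p = 0.00032), from 313 to 513 CPM to 187, 159, 201 and 183 CPM. Neither overlapped between June and the earlier dates in these trees. Over all 11 trees, June was the lowest date in 11 trees for each of them.

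The steps between neighbouring dates placed the change between May and June. From March to April the members' median step in a tree ran from -0.44 to 0.37 (mean -0.04 ± 0.21 SD, n = 11), and from April to May from -0.41 to 0.35 (mean -0.10 ± 0.22). From May to June it ran from -1.44 to -0.34 (mean -0.88 ± 0.31) and was negative in all 11 trees. For all 16435 features these means were 0.03, -0.19 and -0.05. The step from April to May was thus smaller in the members than in all features, and the step from May to June was larger. These libraries chose the members, so the steps are a description. The May and June libraries ran on 1 flowcell. The mean step between them, -0.88, was close to the -0.94 of June minus the mean of the earlier dates. The rule's limit on the spring range brings these values close, so nothing about the flowcell is read from them.

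**Figure D5:**
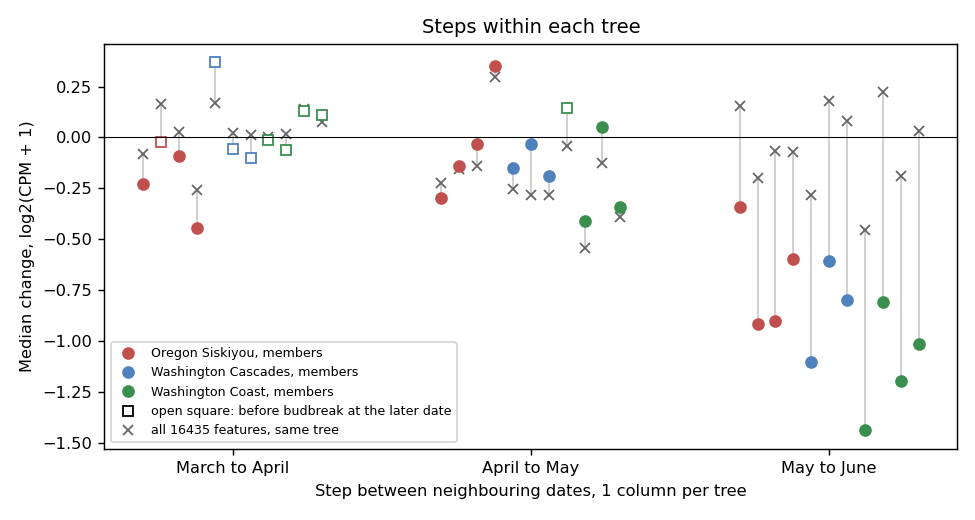
Median change of log2(CPM + 1) between neighbouring dates in each of 11 trees, for the 100 members (circles and squares, coloured by seed source) and for all 16435 features (crosses). Open squares mark trees still before budbreak at the later date. Steps of the members up to May lie between -0.44 and 0.37, and those from May to June between -1.44 and -0.34.

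In May, 10 of 11 trees were labelled post-budbreak, and the members' mean log2(CPM + 1) in those 10 was 4.35 to 5.17, against 3.54 to 4.16 in June. Tree 10, still pre-budbreak in May, had the highest May mean, 5.30, and the largest step to June, -1.44. The step of all features in that tree was also the largest, at -0.46. After subtracting it the members' step was -0.98, behind trees 68 (-1.05), 69 (-1.03) and 12 (-1.01). It held the highest May value of 37 members, against 17.5% of all features. The trees labelled post-budbreak in April had member steps from March to April of -0.23 (tree 44), -0.09 (tree 46) and -0.44 (tree 89), beside -0.08, 0.03 and -0.26 in all features. In the other 8 trees this step was -0.10 to 0.37, beside 0.0029 to 0.17 in all features. After subtracting the step of all features, the members' step was -0.15, -0.12 and -0.19 in trees 44, 46 and 89 and -0.19 to 0.20 in the other 8, where the lowest was that of tree 90, also ORSI and pre-budbreak in April. All 3 were ORSI trees, so early budbreak and Oregon origin cannot be told apart here, and neither was tested against the members.

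The libraries of 2 trees stood low for their date. In the April library of tree 89 the members' mean was 4.12, close to the 4.16 of its June library, and 44 members had their lowest April value there, against 35.6% of all features. In the May library of tree 44 the mean was 4.35, and 27 members had their lowest May value there, against 13.3%. The corresponding means over all features were 4.13 and 4.09, the former the lowest of the 11 April libraries. These trees also had the smallest June changes. Without tree 89 the median change of the members was -0.99, and without tree 44 it was -0.96.

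Flowcell was tested in the 22 March and April libraries, where it was crossed with date. In edgeR 0 of 100 members passed an adjusted p of 0.01, as did 0.0% of all 30752 features, and 0 members had an unadjusted p of 0.05 or less, against 0.966%. DESeq2 called 0 members. The median difference of fc1025 minus fc1022 was 0.03 over members and 0.00 over all features. The smallest p was that of gene76844, at 0.20 ± 0.12 (SE) with an adjusted p of 1 in edgeR, with 23.6 to 28.4 CPM in March and 12.2 to 36.0 in April.

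Tree 38 gave a separate reading, from 1 tree and with its date in doubt. Its library labelled June was below the mean of its April and May libraries in 100 of 100 members, against 56.9% of all features, with a median of -0.76 (all features -0.09). It was below each of these libraries in 95 members, against 40.1%, and lower by 1 or more in 40, against 6.0%. May was below April in 28 members, against 55.0%. gene19136 had 29.1, 33.4 and 15.0 CPM in the libraries labelled April, May and June, and gene37248 had 5.05, 11.6 and 0.62. The 50 most abundant features were also left out of the totals, a setting chosen after the data were seen. Then 97 members were lower, against 47.7% of all features, with a median of -0.65 beside 0.03 for all features.

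Under other scalings of the libraries the rule gave partly other features, and the members' median June change was smaller than its main value of -0.92. With library sizes adjusted by TMM the members' median June change was -0.71, and that of all features 0.01, and with the 50 most abundant features left out of the totals these were -0.72 and 0.02. All 100 members kept a negative change under each scaling. The rule then returned 42 and 58 of the 100 members, 41 of them under both. Of the 58 lost with TMM, 21 had a spring range of 0.4 or more, and under TMM May had the highest of the 3 earlier means in 72 members and the lowest in 1. The libraries rescaled here are those that chose the members, so their negative change under these scalings is a description and tests nothing. With TMM, 21 members no longer met the limit on the spring range. The others lost with TMM kept a spring range under 0.4, but their June gap no longer ranked among the largest 100.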

How the data were processed

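Strand-specific RNA-seq libraries of needles were analysed for 4 dates. The authors deposited 1 table of whole-number counts per feature, whose 47 columns all matched a sample's labels (0 were left out). CASAVA 1.8 and Bowtie2 stand in the processing notes of the submitters. The study's methods describe a pan-transcriptome of Douglas-fir needles as its mapping reference for Bowtie2, but whether the deposited features are its transcripts, and which counter was used, is not stated there. The library totals are almost equal, so the deposited counts had been brought to nearly the same depth in a step these sources do not describe, and counts say nothing of the sequenced depth. Libraries of other dates were not analysed here.

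The members and lists were chosen with earlier results of these data known. The rule was applied to 44 libraries. Counts were tested in R 4.3.3 with edgeR 4.0.16 (TMM, quasi-likelihood test, limma 3.58.1, Benjamini-Hochberg), on features with a median count over 5 in the libraries fitted, at an adjusted p of 0.01, after the study's filter and threshold. Fits had 1 mean per seed source and date. Spring levels were tested on sums per tree, and the flowcell with date and seed source as terms. The fits of the June change without a tree term were also run on simulated counts. These were drawn independently for each library, so the pairing by tree was not covered. The alternatives tried were an adjusted p of 0.05, DESeq2 1.42.0, no count filter, the 50 most abundant features left out, the tree as a block, the flowcell as a covariate, June against May alone, a pseudocount of 0.25, and leaving out each tree.

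Trees pair the samples by design. Deviations from the mean of seed source and date correlated at 0.53 on average between libraries of a tree (0.21 to 0.75, over 0.1 in 66 of 66 pairs). Trees are separate plants, but the main fits of the June change and of the flowcell had no term for the tree. Their p-values thus treat libraries of 1 tree as independent and mix the spread between and within trees. Those of the spring levels, on sums per tree, reflect the spread between trees.

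Features named are the 2 members with the largest measure, the 2 on each side of the list's end, the 2 with the highest mean count, the 2 with the largest SD between trees, and, for each tested contrast, up to 2 features of its list with the smallest p in each direction, or 1 where none passed.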

Additional observations from a re-analysis of the deposited data

How the results depend on the processing

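The count of members past the threshold for a difference between seed sources in the June change stayed at 0 under every alternative run, and with the tree as a replicate block it was 0 for each contrast and for the flowcell. For spring levels, DESeq2 called 1 member for Oregon minus Washington and 1 for Cascades minus Coast, where edgeR called 0. For the lists chosen without a source, the calls in ORSI, WACA and WACS (6, 1 and 15) were 17, 12 and 44 at an adjusted p of 0.05, 20, 16 and 42 with DESeq2, and 24, 16 and 62 with the tree as a replicate block. The share of all features called lower also rose with the block, from 0.614%, 0.106% and 3.43% to 2.33%, 1.86% and 9.56%. The list calls were 1, 0 and 8 with the flowcell as a covariate and 0, 0 and 6 for June against May only. Without a count filter WACA gave 5. No share of all features is given for the settings other than the block, so their counts are not read as results about the lists. Without 1 tree, in fits with no tree block, the list calls ranged from 0 to 0 in ORSI and WACA and from 2 to 9 in WACS. The rule returned 42 members with TMM-adjusted library sizes, 58 without the 50 most abundant features, 87 with a pseudocount of 0.25, and 77 to 87 without 1 tree. The median June change was -0.89 to -0.99 without 1 tree, -0.71 with TMM-adjusted library sizes and -0.72 without the 50 most abundant features. Each lay within 1 SD between trees of the main value, but that SD does not measure a shift shared by all trees. The cause of these shifts was not tested. Of 136 values of named features under alternatives, 0 reversed, 16 lost and 2 gained the call. With 3 or 4 trees per source, small changes could pass the threshold only where trees differed little.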
